A study of Mus musculus with 2 samples.

Results

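Type 2 conventional dendritic cells (cDC2) were taken as cell barcodes that carried a UMI of at least 2 of 7 marker genes, Cd209a, Flt3, Clec10a, Ccl17, Kmo, Zbtb46 and Cd209d, with Cd209a or Flt3 among them. They also had at least 10 UMIs of H2-Aa, no UMI of Ccr7 and fewer than 20 UMIs of C1qa, C1qb and C1qc together. UMIs are molecular tags, and each counted UMI stands for 1 captured transcript. The rule found 56 of the 3670 barcodes that passed the cell filter (500 or more UMIs, 300 or more genes, mitochondrial UMIs of 15% or less). All 56 came from the MSC-sEV library, where they were 2.41% of 2323 barcodes (exact Clopper-Pearson 95% interval 1.83 to 3.12). The PBS library held 0 of 1347, which allows a share of up to 0.223% by the limit of 3 counts and 0.273% by the exact interval.

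Single-cell RNA was measured in retinal cells, enriched for immune cells, of C57BL/6 mice aged 6 to 8 weeks, 2 weeks after optic nerve injury. The MSC-sEV library came from injured mice that received a treatment labelled only as MSC-sEV, with no dose or route stated, and the PBS library came from injured mice given PBS. Each library was 1 pool of retinas from 6 mice, enriched for CD45, the surface marker of leukocytes, on magnetic beads, so no difference between the libraries has a replicate check and no p-value was computed. In total 16987131 UMIs were deposited over 2593 barcodes for MSC-sEV and 8439740 UMIs over 1676 barcodes for PBS, with 0 barcodes in common.

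Conventional dendritic cells take up antigen in tissues, load it on MHC class II molecules and, after they mature and switch on the chemokine receptor Ccr7, carry it to lymph nodes for display to T cells. The type 2 lineage depends on the transcription factors Irf4 and Klf4, shows antigen mainly to CD4 T cells and is marked in mice by the sugar-binding lectins Cd209a, Clec10a and Mgl2. The healthy retina is populated mainly by microglia, and dendritic cells are known there as rare cells that increase after injury or inflammation.

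The 56 cDC2 were deep barcodes, with a median of 15581 UMIs (2105 to 46219) and 3750 genes, and 1.99% mitochondrial UMIs at the median. The values that chose them are given as a description. They carried 2 to 7 of the 7 markers, with a median of 4, and 11 to 603 UMIs of H2-Aa, with a median of 114.5. The lowest H2-Aa values inside the rule were 11, 11 and 17 UMIs, and the highest C1q sums were 18, 10 and 10. Just outside it, 14 barcodes of the MSC-sEV library failed on H2-Aa alone, with 0 to 9 UMIs, 13 failed on Ccr7 alone, with 2 to 69 UMIs, and 21 failed on C1q alone, with 22 to 701 UMIs.

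The libraries also differed without any gate, in the UMIs of the markers summed over all barcodes. Cd209a, which encodes a relative of the human lectin DC-SIGN, had 802 UMIs in the MSC-sEV library and 0 in the PBS library, where 3 UMIs would be 0.355 counts per 1000000. Ccl17, a chemokine for T cells that carry Ccr4, had 1857 UMIs in the MSC-sEV library and 0 in the PBS library. Flt3, the receptor for the growth factor of dendritic cells, had 421 UMIs after MSC-sEV and 4 after PBS. Mgl2 had 2008 and Clec10a 698 UMIs in the MSC-sEV library, against 4 and 1 in the PBS library. In the PBS library 9 barcodes reached 10 UMIs of H2-Aa, 32 at most, and none of them had a C1q sum under 20, against 100 barcodes that met both limits after MSC-sEV. Set against microglia and macrophages, whose C1q sums were 20 or more, cDC2 were 56 of 484 barcodes in the MSC-sEV library (11.6%, exact interval 8.86 to 14.8) and 0 of 122 in the PBS library (up to 2.46% by 3 counts and 2.98% by the exact interval). Other leukocyte RNAs moved with these markers. Ptprc, which encodes CD45, stood at 265 CPM over all barcodes in the MSC-sEV library and 32.1 CPM in the PBS library, and Sag, a photoreceptor gene, at 4715 CPM in the MSC-sEV library and 13587 CPM in the PBS library. Ccr7 dendritic cells were 37 in the MSC-sEV library and 0 in the PBS library, and Ly6c2 Ccr2 monocytes 21 and 0, so the absence from PBS was shared by these gates. Rods, chosen by photoreceptor genes with no UMI of C1q genes or Ptprc, were 648 of 2323 barcodes in the MSC-sEV library (27.9%). In the PBS library they were 572 of 1347 (42.5%), so shares of all barcodes are not shares of immune cells. The part of CD45 enrichment and depth in such shares was not tested.

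Mgl2, a lectin that the rule did not use, had 742 UMIs in 33 of the 56 cDC2. Its level was 790 counts per 1000000 of their summed UMIs (CPM), with an exact Poisson 95% interval of 735 to 849 that covers counting error only. It was seen in 58.9% of cDC2 and in 0.772% of rods, photoreceptors that should lack it, at median depths of 15581 and 2227.5 UMIs. When each barcode was thinned to 1000 UMIs, the shares were 32.1% and 0.579%. The cDC2 held 74.3% of the MSC-sEV library's Cd209d UMIs, 68.4% of its Cd209a UMIs and 37.0% of its Mgl2 UMIs, so much of the Mgl2 RNA lay in other cells.

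The Cd209 genes lie side by side on chromosome 8, Cd209a at 3743397 to 3748984, Cd209e at 3847965 to 3854309 and Cd209d at 3871824 to 3878555 on the minus strand (mm10, GENCODE M21). Cd209a had 548 UMIs in 43 cDC2, Cd209d 176 UMIs in 23, Cd209e 170 UMIs in 24 and Cd209c 9 UMIs in 8. Cd209a was seen in 22 of the 23 cells with Cd209d and in 23 of the 24 cells with Cd209e, where 76.8% of all cDC2 had it and the rule asked for Cd209a or Flt3, so this overlap is a description. The genes are close paralogs, so the split of reads among them is uncertain. Cd209e, which was not in the rule, stood at 181 CPM in cDC2 (155 to 210.5), and 61.6% of its UMIs in the library were in them.

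The promoters of these genes are shown because they carry the same 10-base word. The composite site of GGAA, any 2 bases and GAAA, bound in blood cells by an ETS factor such as PU.1 together with Irf4 or Irf8, was searched on both strands in windows from 250 bases before to 50 bases after the RefSeq start (GRCm38.p6). It occurred in 3 of the 5 Cd209 genes searched, Cd209a, Cd209d and Cd209e, and not in the windows of Cd209b and Cd209c. Cd209f and Cd209g were not searched. Of 32851 promoters, 2.72% held it. Other words were searched too, and this word had no match in the windows of Mgl2, Ccl17, Kmo and Flt3. The 3 genes are close paralogs and are shown because of the match, so their count beside 2.72% is no test of enrichment. All 3 matches, in capitals below, were present as the reverse complement and began 9, 70 and 85 bases before the start of Cd209a, Cd209d and Cd209e. A match is a description of letters and not a shown binding site. The windows are chr8:3748935-3749234 for Cd209a, chr8:3878450-3878749 for Cd209d and chr8:3854237-3854536 for Cd209e, each printed 5′ to 3′ on the minus strand.
Cd209a: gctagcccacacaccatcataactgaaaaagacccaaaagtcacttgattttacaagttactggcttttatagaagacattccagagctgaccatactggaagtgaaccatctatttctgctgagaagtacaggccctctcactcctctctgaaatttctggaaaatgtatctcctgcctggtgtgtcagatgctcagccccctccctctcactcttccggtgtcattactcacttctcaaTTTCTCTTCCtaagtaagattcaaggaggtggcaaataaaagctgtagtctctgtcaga
Cd209d: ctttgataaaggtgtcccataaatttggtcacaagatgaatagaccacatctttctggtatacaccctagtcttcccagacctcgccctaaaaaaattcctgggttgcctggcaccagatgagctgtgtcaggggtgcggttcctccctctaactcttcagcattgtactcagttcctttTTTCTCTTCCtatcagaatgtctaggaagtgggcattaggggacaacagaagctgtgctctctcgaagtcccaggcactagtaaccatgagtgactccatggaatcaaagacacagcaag
Cd209e: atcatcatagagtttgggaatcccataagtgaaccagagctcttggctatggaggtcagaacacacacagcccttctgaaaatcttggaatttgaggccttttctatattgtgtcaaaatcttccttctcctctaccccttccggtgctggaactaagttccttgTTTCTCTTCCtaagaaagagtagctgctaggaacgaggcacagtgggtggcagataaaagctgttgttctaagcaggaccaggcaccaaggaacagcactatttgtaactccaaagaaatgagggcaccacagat

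**Figure D1:**
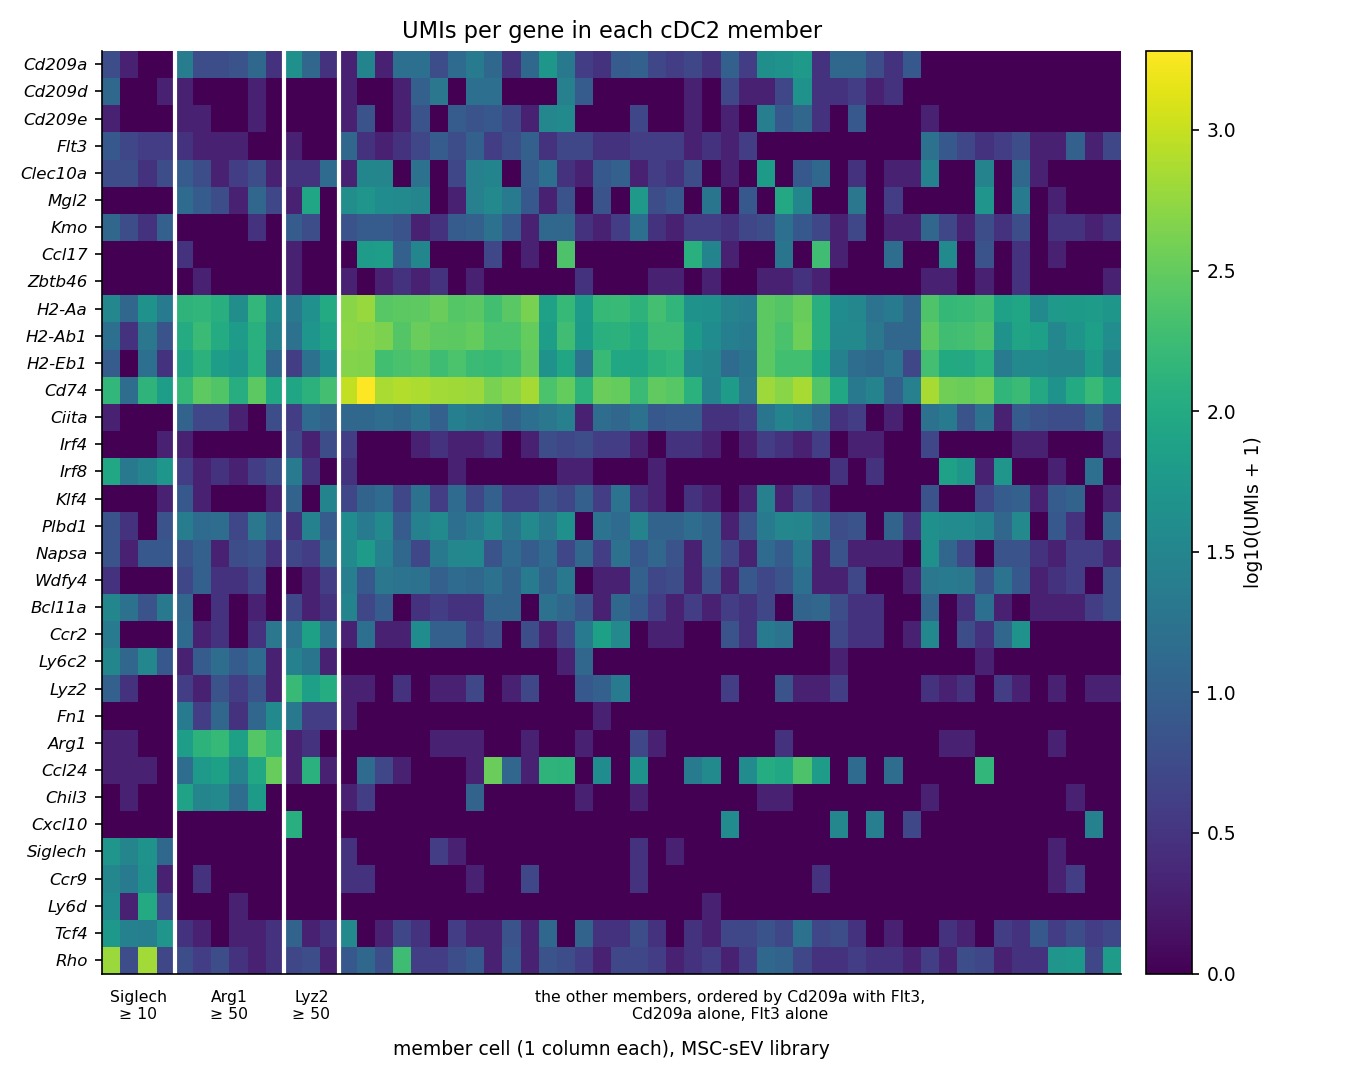
Heat map of log10(UMIs + 1) for 34 genes (rows) in each of the 56 cDC2 of the MSC-sEV library (columns), with 4 Siglech-rich, 6 Arg1-rich and 3 Lyz2-rich cells at the left and the other 43 at the right. Class II genes were high in most columns and low in the 4 Siglech-rich cells, while Ccl17, Ccl24, Arg1, Cxcl10 and Irf8 were high in a few columns and at 0 in many.

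MHC class II genes were higher in cDC2 than in 3 other gates of the same library, which were set against them with no test, since each group is 1 gate of 1 library. These were 37 barcodes of Ccr7 dendritic cells, chosen by Ccr7 and maturation genes, 21 of Ly6c2 Ccr2 monocytes, chosen by those 2 genes, and 428 of C1q-rich macrophages and microglia. A gene counted as higher or lower at a ratio of CPM of at least 2, with at least 20 UMIs in the pair of gates. Against Ccr7 dendritic cells, 11 of 12 class II presentation genes outside the rule were higher and 0 lower, with a median log2 ratio of 2.12, where 17.5% of all 7116 genes were higher, 11.8% were lower and the median was 0.10. Against monocytes 9 of 12 were higher and 2 lower (median 2.07), where 10.7% of 6670 genes were higher and 10.1% lower (median 0.01). Against C1q-rich cells 9 of 12 were higher and 2 lower (median 1.97), where 7.09% of 11170 genes were higher and 16.7% lower (median -0.11). H2-Aa was part of the rule, so these counts describe the gate. The counts of the lists below are to be read beside the same shares of all genes.

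H2-Ab1, which encodes the partner chain of H2-Aa, stood at 8533 CPM in cDC2 (8347 to 8722), against 1735 CPM in Ccr7 dendritic cells, 1607 CPM in monocytes and 1958 CPM in C1q-rich cells. H2-Ab1 was seen in all 56 cDC2 and in 11.6% of rods, with quartiles of 4779 and 11477 CPM over cells. Ciita, the coactivator that class II transcription depends on, stood at 549 CPM in cDC2 and 115 CPM in Ccr7 dendritic cells. In monocytes and C1q-rich cells it stood at 152 and 96.2 CPM. The loading genes split further between gates. H2-Oa and H2-Ob encode DO, which restrains peptide loading by the DM proteins and is best known in B cells and subsets of dendritic cells. H2-Oa had 218 UMIs in cDC2 and 0 in monocytes, a ratio of 25.9 with the monocyte gate set at a floor of 3 UMIs. H2-Ob had 90 UMIs in cDC2 and 0 in monocytes, a ratio of 10.7 by the same floor. H2-DMb2, a chain of DM, was 33.8-fold higher in cDC2 than in monocytes (13.1 to 125) and 8.91-fold higher than in C1q-rich cells (7.66 to 10.4).

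The 2 lower genes of the list were the same against monocytes and C1q-rich cells, and both encode proteases of the endosome rather than class II chains. Ctss, the cathepsin that trims the invariant chain, stood at 1803 CPM in cDC2, 5227 CPM in monocytes and 8721 CPM in C1q-rich cells. Lgmn, an asparagine endopeptidase, was 18.4-fold lower in cDC2 than in C1q-rich cells (15.2 to 22.5). MHC class I presentation genes were close to the other gates, with 1 of 16 higher and 2 lower than in Ccr7 dendritic cells, 1 and 1 against monocytes and 0 and 1 against C1q-rich cells.

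Windows of 3 class II promoters are shown for the CCAAT box, the Y box of the compact class II promoter module, with CCAAT or its complement ATTGG in capitals. The 5-base word was found in at least 1 window of 7 of 7 class II genes of the promoter table, and in 37.4% of 32851 promoters. The first is a count of genes and the second a share of windows, so they are not a test of enrichment. In H2-DMa the match lay 198 bases before the start in chr17:34125268-34125567, with none in chr17:34122582-34122881. Other words were searched too. A match is a description of letters and not a shown binding site. The match nearest the start began 48 bases before it in H2-Aa and 57 in H2-Ob. H2-Eb1 had matches at 59 and 35 bases before its start. The windows are chr17:34287774-34288073 for H2-Aa on the minus strand, and chr17:34305617-34305916 for H2-Eb1 and chr17:34238655-34238954 for H2-Ob on the plus strand, from RefSeq on GRCm38.p6.
H2-Aa: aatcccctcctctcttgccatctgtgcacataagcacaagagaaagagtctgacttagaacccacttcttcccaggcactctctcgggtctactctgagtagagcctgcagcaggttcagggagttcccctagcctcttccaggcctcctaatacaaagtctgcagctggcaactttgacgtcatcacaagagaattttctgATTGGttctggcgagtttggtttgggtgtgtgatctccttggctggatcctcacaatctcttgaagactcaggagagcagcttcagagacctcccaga
H2-Eb1: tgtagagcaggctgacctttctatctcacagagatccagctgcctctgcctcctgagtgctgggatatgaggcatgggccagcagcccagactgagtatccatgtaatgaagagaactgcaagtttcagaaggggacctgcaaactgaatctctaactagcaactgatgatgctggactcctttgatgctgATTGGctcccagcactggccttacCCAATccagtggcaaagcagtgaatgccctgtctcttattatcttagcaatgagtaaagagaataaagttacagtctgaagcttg
H2-Ob: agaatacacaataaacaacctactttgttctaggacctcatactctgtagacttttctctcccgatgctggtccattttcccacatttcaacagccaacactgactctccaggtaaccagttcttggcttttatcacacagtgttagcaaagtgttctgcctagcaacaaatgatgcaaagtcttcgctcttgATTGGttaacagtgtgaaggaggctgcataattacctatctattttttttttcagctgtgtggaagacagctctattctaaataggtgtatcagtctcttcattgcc

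**Figure D2:**
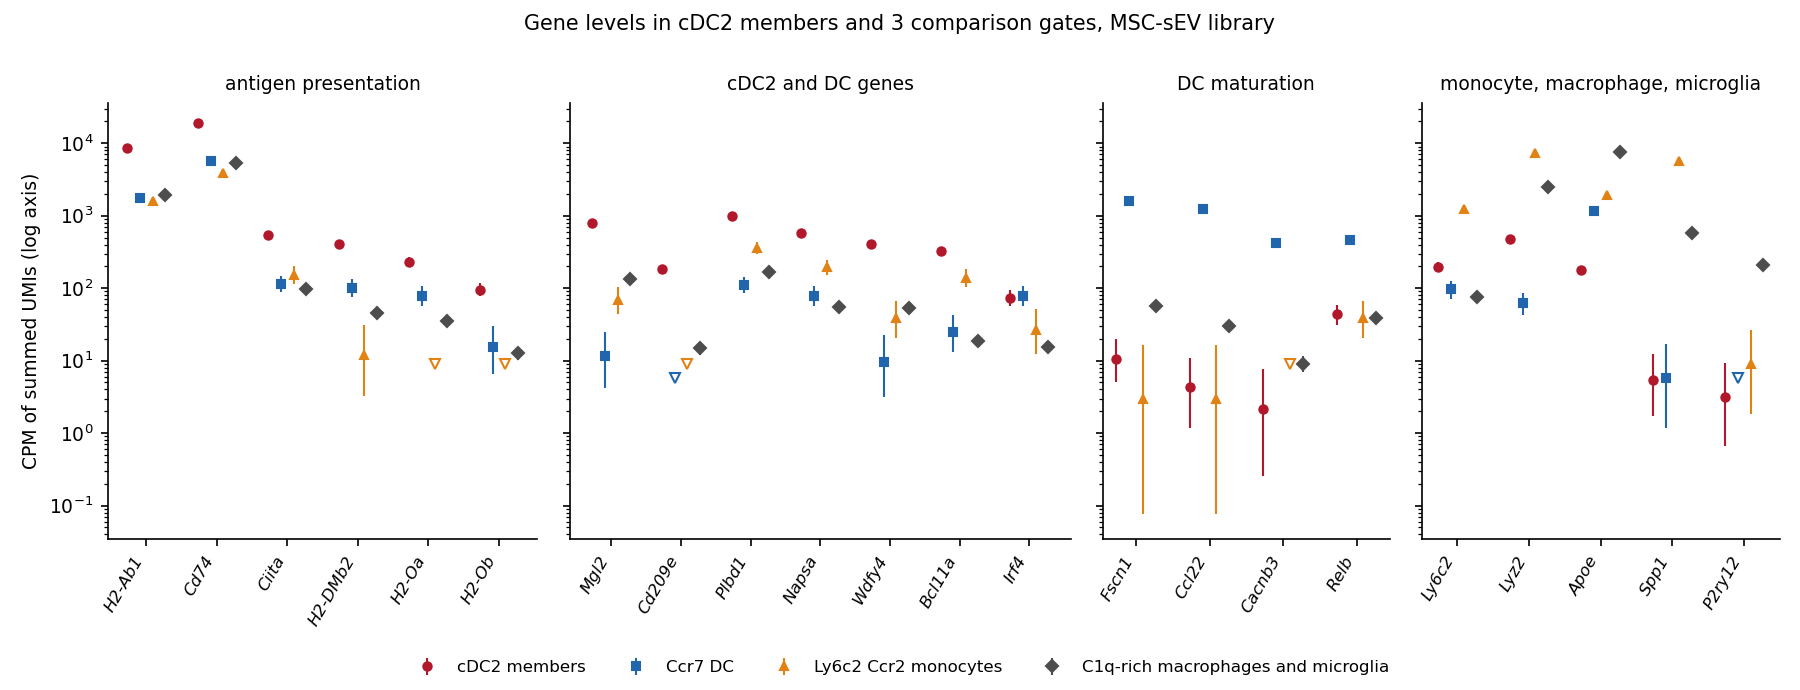
CPM of summed UMIs (log axis) with exact Poisson 95% intervals for 22 genes in cDC2 (56 barcodes), Ccr7 dendritic cells (37), Ly6c2 Ccr2 monocytes (21) and C1q-rich cells (428) of the MSC-sEV library, with open triangles at 3 UMIs over the gate where a gene had none. The cDC2 lie highest for the class II genes and for Mgl2, and lie 150-fold below Ccr7 dendritic cells for Fscn1 and 43.6-fold below C1q-rich cells for Apoe.

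Further genes known from cDC2 but left out of the rule were mostly higher in the cells it chose. Of the list of cDC2 markers outside the rule, 9 of 13 were higher and 1 lower than in Ccr7 dendritic cells (median log2 ratio 2.39), 9 of 12 and 1 against monocytes (1.44), and 8 of 13 and 2 against C1q-rich cells (2.25). Of all genes, 17.5%, 10.7% and 7.09% were higher in cDC2 than in these gates in the same order, and 11.8%, 10.1% and 16.7% lower. Plbd1, a phospholipase-like lysosomal protein, stood at 986 CPM in cDC2 (924 to 1052), 112 CPM in Ccr7 dendritic cells, 361 CPM in monocytes and 166 CPM in C1q-rich cells. Napsa, an aspartic protease, stood at 574 CPM in cDC2, against 78.9, 194 and 54.5 CPM in those gates in the same order. Both genes were spread over the cells, in 51 and 54 of the 56, against 1.70% and 1.08% of rods. Itgam, the CD11b integrin chain, went the other way against 2 gates, being 2.20-fold lower than in monocytes (1.67 to 2.90) and 3.06-fold lower than in C1q-rich cells (2.55 to 3.71).

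Genes shared by dendritic cells separated cDC2 from monocytes and macrophages. Of the 13 genes of that list, 10 were higher and 0 lower than in monocytes, 9 and 0 against C1q-rich cells, and 6 and 2 against Ccr7 dendritic cells. Bcl11a, a transcription factor required for dendritic cell development, stood at 323 CPM in cDC2 and 18.7 CPM in C1q-rich cells, a ratio of 17.3 (14.0 to 21.4). Kit, the stem cell factor receptor, had 60 UMIs in cDC2 and 0 in monocytes, a ratio of 7.13 with monocytes at the floor of 3 UMIs. The 2 lower genes against Ccr7 dendritic cells were Tbc1d4, a Rab GTPase-activating protein, at 38.4 CPM in cDC2 against 1270 CPM in Ccr7 dendritic cells, and Relb, an NF-kB subunit of mature dendritic cells, at 43.7 CPM against 462 CPM.

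Wdfy4, known for cross-presentation in the type 1 lineage and kept in the list of that lineage, stood at 413 CPM in 47 cDC2 and was 43.0-fold higher than in Ccr7 dendritic cells (18.2 to 133). The transcription factors of the type 2 lineage were unevenly spread over the cells. Irf4 had 69 UMIs in 32 of the 56 cDC2 (57.1%, against 0% of rods), at 73.5 CPM (57.2 to 93.0), 2.73-fold above monocytes (1.36 to 6.23) and 1.07-fold below Ccr7 dendritic cells (0.711 to 1.60). Klf4 stood at 274 CPM in cDC2 and 107.5 CPM in monocytes. Irf8, which marks type 1 and plasmacytoid dendritic cells at high levels, had 433 UMIs in 25 cDC2, and 4 cells held at least 50% of them. Id2, a factor of conventional dendritic cells, had 487 UMIs in 33 cDC2, with 4 cells again holding at least 50%.

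Maturation and migration genes were low, and set cDC2 apart from the Ccr7 dendritic cells of the same library. All 16 genes of that list were lower in cDC2, with a median log2 ratio of -3.60, although Fscn1, Ccl22, Il4i1, Cacnb3 and Socs2 had been used to choose the Ccr7 gate and the rule for cDC2 asked for no Ccr7. Among those it did not use, Traf1, an adaptor of TNF receptors, stood at 111 CPM in cDC2 and 718 CPM in Ccr7 dendritic cells. Fscn1, an actin-bundling protein of mature dendritic cells, had 10 UMIs in 5 cDC2 and 833 UMIs in the Ccr7 gate, 150-fold lower in cDC2 by CPM (81.4 to 315). Of the costimulation genes, Cd83 was 6.32-fold lower (4.38 to 9.32), Cd274, which encodes PD-L1, 5.10-fold lower (3.75 to 7.03) and Cd86 1.48-fold lower (0.982 to 2.23) in cDC2. Of the 37 Ccr7 dendritic cells, 15 reached 10 UMIs of H2-Aa. One barcode of that gate held 7119 of its 7124 Igkc and Jchain UMIs, genes of plasma cells, and 111151 of its 519766 UMIs. Without it the median of the maturation list was -3.67 and that of the class II list 2.03.

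Macrophage genes were low in cDC2 against both monocytes and C1q-rich cells. All 14 genes of the monocyte-derived macrophage list were lower than in monocytes (median log2 ratio -3.28), and all 14 were lower than in C1q-rich cells (median -3.30). The rule asked for few C1q UMIs and the C1q-rich gate for many. Counts of this list and of the microglia list against C1q-rich cells thus partly follow from that choice. Against Ccr7 dendritic cells 7 of 11 macrophage genes were higher and 1 lower (median 2.00), where 17.5% and 11.8% of all genes were. That median was -0.32 without the Siglech, Arg1 and Lyz2 cells described below. Apoe, a lipid carrier, stood at 176 CPM in cDC2 and 7668 CPM in C1q-rich cells. Apoe was seen in 89.3% of cDC2 and in 40.3% of rods, but at unequal median depths of 15581 and 2227.5 UMIs. By CPM the order was reversed, with Apoe at 176 CPM in cDC2 and 629 CPM in rods. The share of cells is therefore no sign of a higher Apoe level in cDC2 than in rods. The part of free RNA in the Apoe level was not tested. Lyz2, the macrophage lysozyme, stood at 480 CPM in cDC2 and 7333 CPM in monocytes. In cDC2, 3 cells held 341 of its 451 UMIs, and the other 53 stood at 125 CPM. Of the microglia list, 0 of 12 genes were higher and 11 lower than in C1q-rich cells, with 3 UMIs of P2ry12 and 1 of Tmem119, defining markers of microglia, in all 56 cDC2. Of classical monocyte genes, 7 of 11 were lower than in monocytes and 0 higher, but 7 of 11 were higher than in C1q-rich cells. That list holds Ly6c2 and Ccr2, so its count against monocytes partly follows from how the monocyte gate was chosen. Of all genes, 10.1% were lower than in monocytes, and 7.09% were higher and 16.7% lower than in C1q-rich cells. Ccr2, the chemokine receptor by which monocytes leave the blood, was present in 39 cDC2 (69.6%, against 1.23% of rods) at 575 CPM, against 1368 CPM in the monocytes it had helped to choose.

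**Figure D3:**
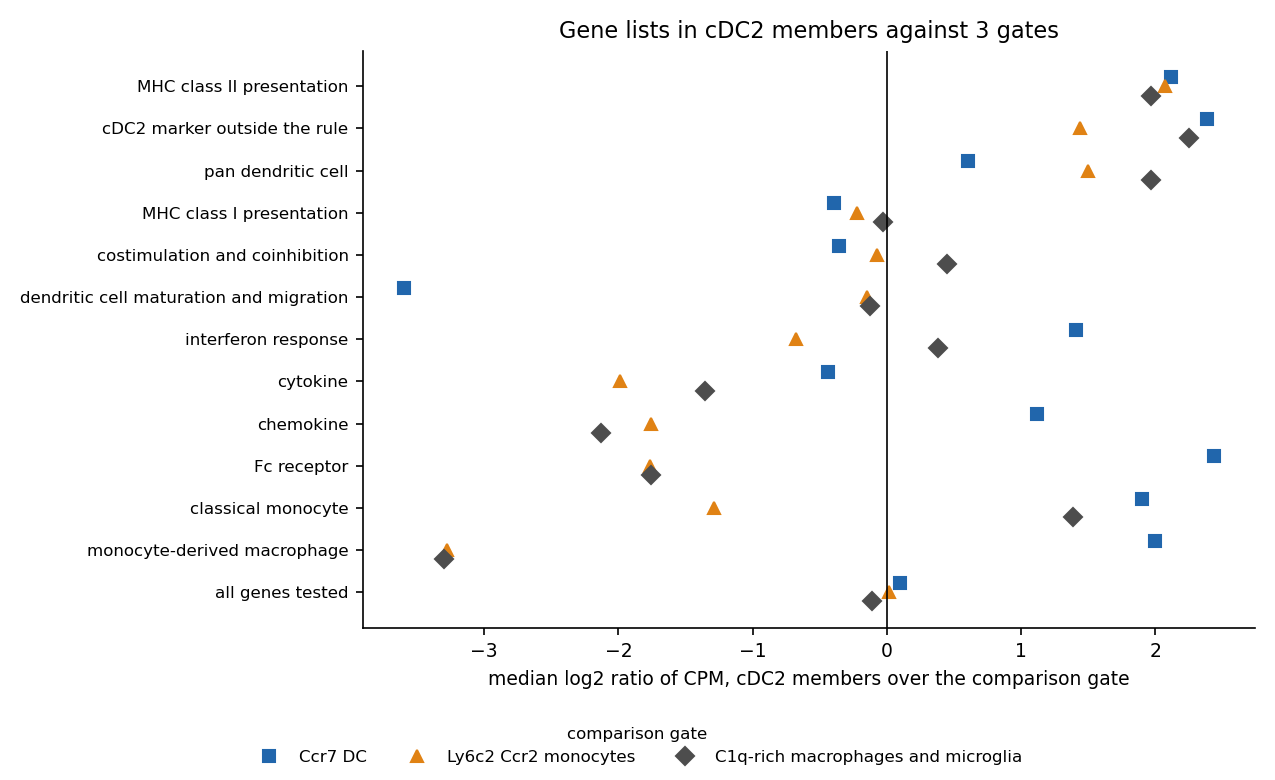
Median log2 ratio of CPM in cDC2 over 3 comparison gates of the MSC-sEV library for 12 gene lists and for all genes with at least 20 UMIs in the pair. Class II genes sit near 2 against all 3 gates and maturation genes at -3.60 against Ccr7 dendritic cells, while the macrophage list sits at 2.00 against Ccr7 dendritic cells but at -0.32 there once 13 Siglech-rich, Arg1-rich or Lyz2-rich cDC2 are left out.

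Of the cytokines and chemokines some were at 0 in cDC2 and a few were abundant. The cDC2 had 0 UMIs of Il12b, Il23a and Il10, cytokines that steer T cells, and 0 of Ido1, the first enzyme of tryptophan breakdown, each of which allows up to 3.20 CPM at the limit of 3 counts. Of 9 cytokine genes with enough UMIs, 5 were lower and 0 higher than in monocytes, and of 14 chemokine genes 12 were lower and 0 higher. Against Ccr7 dendritic cells 2 of 10 cytokine genes were higher and 3 lower, and 6 of 12 chemokine genes were higher and 3 lower. Of all genes, 17.5% were higher and 11.8% lower than in Ccr7 dendritic cells, and 10.7% and 10.1% against monocytes. The 2 of 10 cytokine genes that were higher are thus near the share of all genes. Il1b was seen in 66.1% of cDC2 and 4.48% of rods, and stood at 418 CPM in cDC2, against 523 CPM in monocytes. Kynu, kynureninase, which acts downstream of the marker Kmo in the kynurenine pathway, stood at 81.0 CPM in cDC2, 26.9 CPM in monocytes and 20.1 CPM in C1q-rich cells. Crlf2, the receptor chain for TSLP, was seen in 83.9% of cDC2 and 2.62% of rods, and stood at 150 CPM in cDC2 and 173 CPM in monocytes.

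Some genes with no place in the lists were concentrated in cDC2. Epcam, an adhesion molecule of epithelia and Langerhans cells, had 87 of its 128 UMIs in the library in 20 cDC2, and was 21.8-fold higher than in C1q-rich cells (14.3 to 34.2). Aqp3, a water and glycerol channel, had 101 of 171 UMIs in 26 cDC2 and was 21.1-fold higher than in C1q-rich cells (14.3 to 31.8). Both genes came from a rule of rank and not from a list of known functions.

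Ccl17 and Ccl24 showed how unlike the cells were. Ccl17 had 826 UMIs in 20 cDC2, and the 2 highest cells held 228 and 189 of them. Ccl24, an eotaxin that draws Ccr3 cells such as eosinophils, had 2193 UMIs in 33 cDC2, at most 337 in a cell. At least 10 UMIs were found in 10 cells for Ccl17, in 24 for Ccl24 and in 7 for both. Ccl24 was seen in 58.9% of cDC2 and 5.71% of rods, and after thinning in 39.3% of cDC2 and 2.32% of rods. The level of Ccl24 in cDC2, 2336 CPM, was 3.70-fold above Ccr7 dendritic cells (3.30 to 4.17) and 1.38-fold below monocytes (1.28 to 1.48).

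Splitting the cells by the 2 genes that could admit them gave 30 cDC2 with both Cd209a and Flt3, 13 with Cd209a alone and 13 with Flt3 alone. Id2 stood at 327 CPM in the 30, 55.2 CPM with Cd209a alone and 1419 CPM with Flt3 alone. Of the 298 Id2 UMIs in the Flt3-only cells, 4 cells held 274 and the other 9 held 24. Ccl24 stood at 1804 CPM in the 30, 5837 CPM with Cd209a alone and 705 CPM with Flt3 alone. Of the 148 Ccl24 UMIs in the Flt3-only cells, 147 were in 1 cell, while 9 of the 13 Cd209a-only cells reached 10 UMIs, and 2 Arg1-rich cells held 417 of their 1057 UMIs. These values therefore rest on few cells, and low counts can hide either gene in a cell, so its boundaries are approximate.

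Small groups of the 56 barcodes carried genes known from other cells, so the gate was mixed. They are called cDC2 only because the rule admitted them, and levels given for all cDC2 include them. The same holds for the cells with high Irf8 described below. In 4 cells Siglech, a marker of plasmacytoid dendritic cells and microglia, reached 10 UMIs (12, 30, 46 and 50), and they held 138 of the 148 Siglech UMIs, 98 of 117 Ccr9, 144 of 146 Ly6d and all 34 Klk1 UMIs, genes of plasmacytoid cells. They had 0 UMIs of Mgl2, Ccl17 and Zbtb46, 1 of Ciita, and 418 CPM of H2-Ab1, against 10325 CPM in the 43 cDC2 outside the 3 small groups. Other markers were present in all 4, with Kmo at 269 CPM against 291 CPM in the 43, Flt3 at 169 CPM against 203 CPM, and Clec10a at 169 CPM against 489 CPM. They also held 3546 of the 5218 photoreceptor UMIs of all cDC2, and these made up 0.162%, 0.209%, 3.10% and 6.52% of the UMIs of the 4 cells. Leaving out the 2% of barcodes with the highest Scrublet doublet scores in each library kept 55 of the 56 cDC2. The cell it removed was the Siglech-rich cell with 6.52% photoreceptor UMIs.

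In 6 other cells Arg1, an arginase of alternatively activated macrophages, reached 50 UMIs, and they held 831 of its 851 UMIs. All 6 had Ly6c2 and at least 10 UMIs of Ccl24, none reached 10 UMIs of Ccl17, and they held 83 of 111 Fn1 and 215 of 236 Chil3 UMIs. Their Cd209a, at 676 CPM, and H2-Ab1, at 7463 CPM, stood beside 618 and 10325 CPM of the same genes in the 43. Another group of 3 cells had 71, 106 and 164 UMIs of Lyz2, all with Ly6c2. Interferon response genes made up 22372 CPM in this group, 4829 CPM in the 43 and 5958 CPM over all cDC2. The cell with 164 UMIs of Lyz2 alone held 668 of the 5593 interferon response UMIs of all cDC2, the most of any cell. One of the 3 held 114 of the 238 Cxcl10 UMIs, and the other 124 lay in 5 cDC2 outside the group, at 4 to 37 UMIs each.

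Of the type 1 list, 4 of 7 genes were higher and 1 lower than in Ccr7 dendritic cells. Against monocytes 3 of 7 were higher and 0 lower, and against C1q-rich cells 5 of 12 and 2. Of all genes, 17.5%, 10.7% and 7.09% were higher in the same order, and 11.8%, 10.1% and 16.7% lower. Wdfy4 was seen in 47 cDC2 and Batf3 in 41, so genes of this list were not confined to single cells. Irf8 with Id2 was high in a few single cells. Outside the Siglech-rich cells, 3 cDC2 had 51, 53 and 74 UMIs of Irf8, and the same cells had 45, 82 and 89 UMIs of Id2. Each had Flt3 and no Cd209a, Clec10a or Mgl2, with 2, 2 and 0 UMIs of Clec9a, the type 1 lectin, and 3 UMIs of Xcr1 in the last. Of the genes of dividing cells, Mki67 was seen in 11 cDC2 (19.6%), and Top2a in 2 of them (24 and 9 UMIs). With the 13 cells of the Siglech, Arg1 and Lyz2 groups left out, the class II medians were 2.42 against Ccr7 dendritic cells, 2.34 against monocytes and 2.23 against C1q-rich cells.

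**Figure D4:**
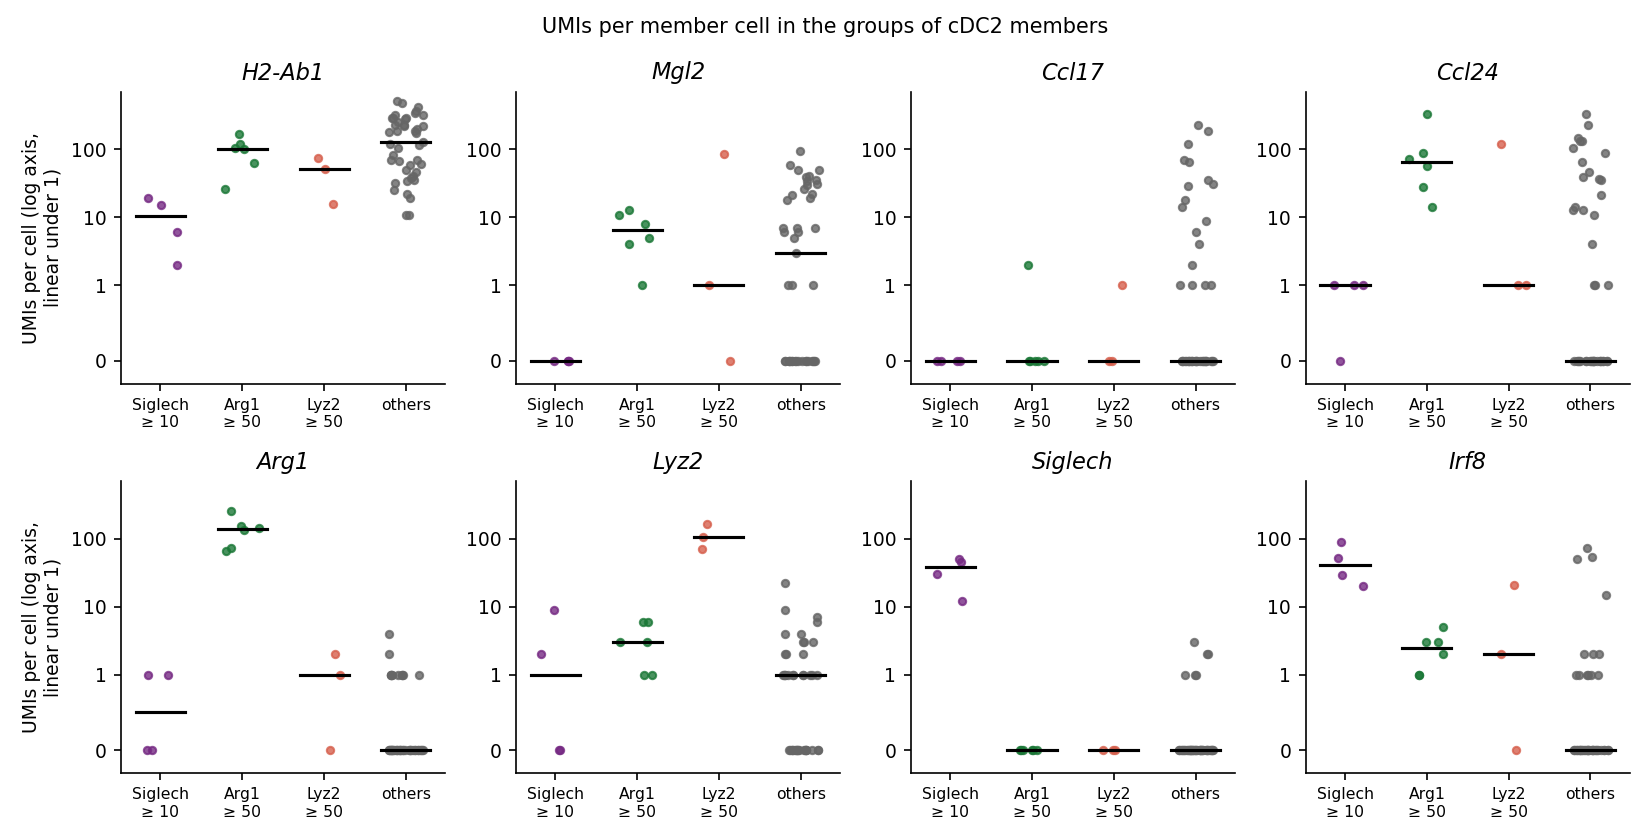
UMIs per cell (log axis, linear under 1) of 8 genes in the 4 Siglech-rich, 6 Arg1-rich, 3 Lyz2-rich and 43 other cDC2, with a bar at the median. H2-Ab1 ran from 2 to 19 UMIs in Siglech-rich cells and was at least 10 in the 43, and Ccl17 reached 10 UMIs in cells of the 43 and in no cell of the 3 small groups.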

How the data were processed

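Single-cell RNA-seq was analysed from 2 libraries, MSC-sEV and PBS, as the UMI counts that the authors deposited, raw counts per gene and barcode for 31053 genes. Per the labels' protocols they were made with Cell Ranger 3.0.2 on mm10 from 10x 3′ libraries, and the annotation release is not given in the sources used here. Barcodes with at least 500 UMIs, 300 genes and at most 15% mitochondrial UMIs were kept, and no doublets were removed in the main setting. UMIs were summed over each gate and divided by its total (CPM), with exact Poisson intervals for levels, exact conditional binomial intervals for ratios and exact Clopper-Pearson intervals for shares, all at 95% and covering counting error only. A share of 0 was given the limit of 3 counts. With 1 library per group no p-value was computed, and Python 3.11.15, NumPy 2.4.6, SciPy 1.17.1, pandas 2.3.3 and Scanpy 1.11.5 were used. The computations were tested on simulated counts.

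The members and the 33 gene lists were chosen with earlier results of these data known. Genes outside the lists were named by rank, as the 10 highest and 10 lowest per gate by the interval bound nearest to 1, the 20 with the highest CPM and the 10 with the largest share of their UMIs in cDC2. The small groups by Siglech, Arg1, Lyz2 and Irf8 were set after seeing the data. Gene positions are from GENCODE M21 on GRCm38 (mm10) and promoters from RefSeq on GRCm38.p6. Alternatives changed the marker, H2-Aa, C1q and Ccr7 limits, the cell filter, the doublet treatment by Scrublet score, the weighting of cells, the denominator and the count filter.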

Additional observations from a re-analysis of the deposited data

How the results depend on the processing

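The PBS library held 0 cDC2 under every setting of the rule that was tried, and the MSC-sEV library 48 to 69 under those fixed at the start. Most settings only narrowed the rule, and the PBS library had 0 UMIs of Ccr7. Only the H2-Aa minimum of 5 UMIs could have added PBS cells, so the PBS count was mostly fixed in advance. The 20 settings gave 130 main values, which were counts of cDC2 or of genes called and included the PBS count of 0. Of these, 121 stayed within 1.5 times of the main setting. The others were counts of genes under another count filter. With 50 summed counts, 670 genes were higher and 422 lower than in Ccr7 dendritic cells, and 277 higher and 318 lower than in monocytes. With no filter, 1995 were higher and 2954 lower than in Ccr7 dendritic cells, 1256 higher and 3494 lower than in monocytes, and 4932 higher than in C1q-rich cells. Gene levels and shares of cells were not among the main values. Of levels in CPM, 83 moved and 115 stayed, and the 11 shares moved. Of log2 ratios, 227 moved, 1 changed sign and 1609 stayed. Small shifts could count as moves, as for Cd74 at 18980.5 CPM and 18660.4 CPM with the H2-Aa minimum of 5 UMIs. Others were large, as for Arg1 at 907 CPM and 23.2 CPM without the Arg1-rich cells.

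A change of sign was counted only where the log2 value of the main setting was at least 1 in size. Smaller values could change sign uncounted, so where the changes fell depends in part on this limit. Medians of log2 ratios counted in this way were mostly those against Ccr7 dendritic cells. Photoreceptor genes there were at -1.44 without cDC2 over 1% photoreceptor UMIs and -0.18 without the deepest 10%. In the settings added after seeing the data they were -0.35 without the Siglech-rich, -0.29 without the Irf8-rich and -0.19 without the Siglech, Arg1 and Lyz2 cells. Without those 3 groups, plasmacytoid genes were at -0.22, macrophage genes at -0.32 and alternative activation genes at -0.087, the last at -0.041 without the Arg1 cells alone. Plasmacytoid genes against C1q-rich cells were at -0.13 without the Siglech-rich, -0.013 without the Irf8-rich and -0.24 without the 3 groups. Cell cycle genes were at 1.28 with a C1q sum under 10, and B and plasma cell genes at 2.07 without the Igkc-rich barcode. With no count filter, microglia genes were at -0.85 and chemokine receptors at -0.44, and granulocyte genes against C1q-rich cells at 0.91. With no limit on Ccr7, Fscn1 was at 2.84 against C1q-rich cells. These causes were not tested, apart from the cells each setting leaves out.

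No paired analysis was possible because each group is 1 library. Genes with few UMIs are limited by depth, and cells with 2105 UMIs can miss markers that deeper cells show.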
